A study of Mus musculus with 3 samples.

Results

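The genes described here are 6 calmodulin-dependent kinase genes of 32285 genes in the deposited counts. They are the 4 paralogs of CaMKII (Camk2a, Camk2b, Camk2d and Camk2g), Camk4 and Camk1d. They were listed by name, with their levels by type already known, so their levels and shares are given as a description and carry no test. All 6 passed the filter on low counts of the fit across genes. The libraries hold nuclear RNA of single nuclei from the brain of uninjured C57BL/6 mice. Neurons with an axon to the lumbar cord carried a retrograde label, tissue was dissected under a fluorescence stereomicroscope and frozen, and nuclei were collected by flow cytometry. All 3 libraries belong to this 1 group, so the comparison is between types of neuron within each library. The titles call them biological replicates, while animals per library and the tracer are not stated in them.

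Calmodulin is the small calcium sensor of the cell, and the kinases described here are switched on when calcium-loaded calmodulin binds them. CaMKII assembles into a many-subunit ring in which neighbouring subunits phosphorylate each other, which keeps the kinase active after calcium has fallen. Camk2a and Camk2b encode the alpha and beta subunits that dominate in forebrain synapses, the beta subunit also binds actin, and Camk2d and Camk2g encode the delta and gamma subunits, which are found in many tissues. Camk4 encodes CaMKIV, a mostly nuclear kinase that phosphorylates the transcription factor CREB, and Camk1d encodes a member of the CaMKI family, which is activated by the CaMK kinases.

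The 3 coding stretches below show how far these paralogs differ in coding bases. Whether the counted reads fell in coding sequence is not given in the sources used here. Each comes from the GENCODE vM21 transcripts (GRCm38), and the capitals mark the codon of the threonine that CaMKII subunits phosphorylate in each other. A script found it as the threonine codon that follows codons for arginine, glutamine and glutamate.
Camk2b: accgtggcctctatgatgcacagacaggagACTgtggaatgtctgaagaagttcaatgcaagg
Camk2d: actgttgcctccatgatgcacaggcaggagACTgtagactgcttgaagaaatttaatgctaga
Camk2g: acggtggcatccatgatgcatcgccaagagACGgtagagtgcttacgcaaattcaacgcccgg
Within these 63 bases, Camk2b and Camk2d differed at 12 positions, Camk2b and Camk2g at 20, and Camk2d and Camk2g at 18. Over the aligned coding sequences, 77.8% of bases were identical between Camk2b and Camk2d, 77.1% between Camk2b and Camk2g and 75.6% between Camk2d and Camk2g. The longest run of identical bases was 23, 29 and 23 in these pairs. Camk2a and Camk4 were not compared in sequence here.

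In the annotation of GRCm38, Camk2b (ENSMUSG00000057897) lies on the minus strand of chromosome 11 from 5969644 to 6066362, and Camk2d (ENSMUSG00000053819) on the plus strand of chromosome 3 from 126596302 to 126846326. Camk2g (ENSMUSG00000021820) lies on the minus strand of chromosome 14 from 20734875 to 20794088, and Camk1d (ENSMUSG00000039145) on the minus strand of chromosome 2 from 5293457 to 5714515. The genes span 62.5 kb (Camk2a), 96.7 kb (Camk2b), 250 kb (Camk2d), 59.2 kb (Camk2g), 256 kb (Camk4) and 421 kb (Camk1d). An antisense gene inside Camk2d (Gm15551) had 31 UMIs (unique molecular identifiers, each tagging 1 captured RNA) against 14961 of Camk2d in the kept nuclei. An antisense gene at Camk4 (2310026I22Rik) had 769 against 29297. Whether the counting used strand is not given in the sources used here, so reads of these antisense genes and their partners may not be separable.

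The 3 libraries held 2710, 11094 and 3713 barcodes, of which 2679, 2769 and 3579 had 1000 genes or more and no more than 5% of UMIs from mitochondrial genes, or 9027 of 17517 in all. Pairs of libraries shared 1 to 3 barcodes. Nuclei were typed in order by counts of UMIs scaled to 1e+06 a nucleus (CPM) of marker genes, with at least 2 UMIs. Cortical nuclei had Tox at 300 CPM or more (4126 nuclei), red nucleus nuclei had Ttc6, Chst9 and Rreb1 together at 150 CPM or more (332), hypothalamic nuclei had Sim1 or Ros1 with Rfx2 at 150 CPM or more (149), and hindbrain nuclei had Meis1 with Meis2 at 200 CPM or more (2782). The other 1638 nuclei met no gate. Each gate cuts a continuous range. The nearest nuclei on either side of the Tox gate had 300.2 and 299.99 CPM, and 256 nuclei lay within 10% of it. The nearest values were 150.2 and 149.97 CPM at the red nucleus gate (95 nuclei within 10%) and 200.03 and 199.89 CPM at the Meis gate (553 nuclei). They were 150.3 and 122 CPM at the Sim1 gate (6 nuclei) and 156 and 146 CPM at the Ros1 and Rfx2 gate (21 nuclei).

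The type names were set against markers outside the gates. Bcl11b, which encodes a transcription factor of corticospinal and other subcerebral neurons, had 209 ± 19.4 CPM (SD, n = 3) in cortical nuclei and 14.8 to 34.4 CPM in the means of the other types. Pou4f1, a transcription factor of the red nucleus, had 17.6 ± 8.82 CPM in red nucleus nuclei and at most 1.26 CPM in the means of the other types. Otp, a transcription factor of neuroendocrine hypothalamus, had 30.7 ± 5.80 CPM in hypothalamic nuclei and at most 0.255 CPM in the other 3 types, and Hcrt, the orexin precursor, had 899 ± 211 CPM there and 56.1 to 76.8 CPM in the other 3 types. Of the 7 hypothalamic markers, 6 were highest in hypothalamic nuclei, and Crh was not, with 4.45 ± 3.89 CPM there on 7 UMIs and 9.96 ± 4.43 CPM in hindbrain nuclei. Of the 7 hindbrain markers, Slc17a6 was as high in red nucleus (113 CPM) and hypothalamic nuclei (102 CPM) as in hindbrain nuclei (99.6 CPM). Hoxb5 had 7 UMIs in all hindbrain nuclei, so the name rests on low levels of Lhx4 (25.4 CPM), Lhx3 (19.0), Hoxb3 (9.52), Hoxc4 (8.79) and Hoxa3 (3.91). Nuclei that met no gate had about as much Hoxc4 (9.52 CPM) and Hoxa3 (3.83), and less Lhx4 (14.1), Lhx3 (8.19) and Hoxb3 (4.90). Of the cortical nuclei, 1719 (41.7%) also met another gate, in 1677 of them the Meis gate.

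Camk2a was highest in cortical nuclei, with 595, 707 and 630 CPM in replicates 1, 2 and 3. In hypothalamic nuclei it had 139, 229 and 200 CPM, in hindbrain nuclei 87.5, 143 and 81.4 CPM, and in red nucleus nuclei 42.9, 53.0 and 40.6 CPM. The cortical range lay above all the others in every library, the hypothalamic and hindbrain ranges overlapped, and the red nucleus range lay lowest. The order of hindbrain over red nucleus holds for the whole hindbrain type. Hindbrain nuclei with Slc17a6 at 150 CPM or more had 34.9, 69.5 and 51.2 CPM, which overlapped the red nucleus range. The ratio of mean levels was 14.2 for cortical over red nucleus nuclei (13.3 to 15.5 across libraries), 6.19 over hindbrain nuclei (4.93 to 7.74) and 3.40 over hypothalamic nuclei (3.09 to 4.28).

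Camk2d was lowest in cortical nuclei, while the other 3 types stood in the same order for it as for Camk2a. It had 17.2, 12 and 15.4 CPM in cortical nuclei, against 205, 177 and 240 CPM in red nucleus nuclei, 273, 238 and 307 CPM in hindbrain nuclei and 452, 409 and 460 CPM in hypothalamic nuclei. The hypothalamic values lay above all others, the hindbrain and red nucleus ranges overlapped although hindbrain was the higher in all 3 libraries, and the cortical values lay far below. Mean Camk2d was 29.7 times the cortical level in hypothalamic nuclei (26.3 to 34.1 across libraries), 18.4 times in hindbrain nuclei (15.9 to 20.0) and 14.0 times in red nucleus nuclei (12 to 15.6).

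Camk2b and Camk2g varied much less. Camk2b had 168, 196 and 168 CPM in cortical nuclei and 94.4, 144 and 118 CPM in hindbrain nuclei, and its means in hypothalamic (109 ± 28.9) and red nucleus nuclei (101 ± 13.1) lay close to the hindbrain one. Only the cortical values stood clear of the others, at 1.49 to 1.76 times the mean of each other type. Camk2g had 107, 125 and 112 CPM in cortical nuclei, with means of 107 ± 17.0 in hindbrain, 106 ± 12 in hypothalamic and 98.3 ± 24.5 in red nucleus nuclei, and all 4 ranges overlapped. This order depends on the scale. Scaling by the trimmed mean of M-values (TMM) multiplied library sizes by a mean factor of 0.80 in cortical and 1.16 in hypothalamic sums. On that scale Camk2g had 136 to 153 CPM in cortical nuclei, clear of the means of 91.9 to 100.3 CPM elsewhere, and Camk2b had a mean of 94.9 CPM in hypothalamic and 99.6 CPM in red nucleus nuclei, the reverse of their order without it. The ratios given for the other kinase genes are without TMM and depend on the scale too. With TMM, mean Camk2a was 807 CPM in cortical and 45.1 CPM in red nucleus nuclei, a wider ratio. Mean Camk2d was 18.7 CPM in cortical and 383 CPM in hypothalamic nuclei, a narrower ratio. Mean Camk1d was 709 CPM in cortical and 137 CPM in hypothalamic nuclei, a wider ratio. The fold changes of other genes further below use TMM.

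Camk4 and Camk1d were highest in cortical nuclei too, though by less than Camk2a. Camk4, the CREB kinase, had 220, 227 and 221 CPM in cortical nuclei and 168, 135 and 147 CPM in red nucleus nuclei. Hindbrain nuclei had 113, 106 and 101 CPM of it, and hypothalamic nuclei 133, 64.9 and 121 CPM, on 144 UMIs in all. Cortical lay above red nucleus and red nucleus above hindbrain without overlap, while hindbrain and hypothalamic nuclei could not be ordered.

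Camk1d had 647, 542 and 504 CPM in cortical nuclei, 266, 259 and 227 CPM in hindbrain, 254, 217 and 219 CPM in red nucleus and 155, 148 and 172 CPM in hypothalamic nuclei. Cortical nuclei stood highest and hypothalamic nuclei lowest, with hindbrain and red nucleus overlapping between them, and the cortical mean was 2.25 times the hindbrain mean and 3.57 times the hypothalamic mean. Per kb of gene span, cortical nuclei had 10.3 ± 0.913 CPM per kb of Camk2a, 1.34 ± 0.176 of Camk1d and 0.869 ± 0.0157 of Camk4. Hypothalamic nuclei, where Camk2a had 3.03 ± 0.735 CPM per kb, had 0.376 ± 0.0288 of Camk1d and 0.415 ± 0.142 of Camk4.

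**Figure D1:**
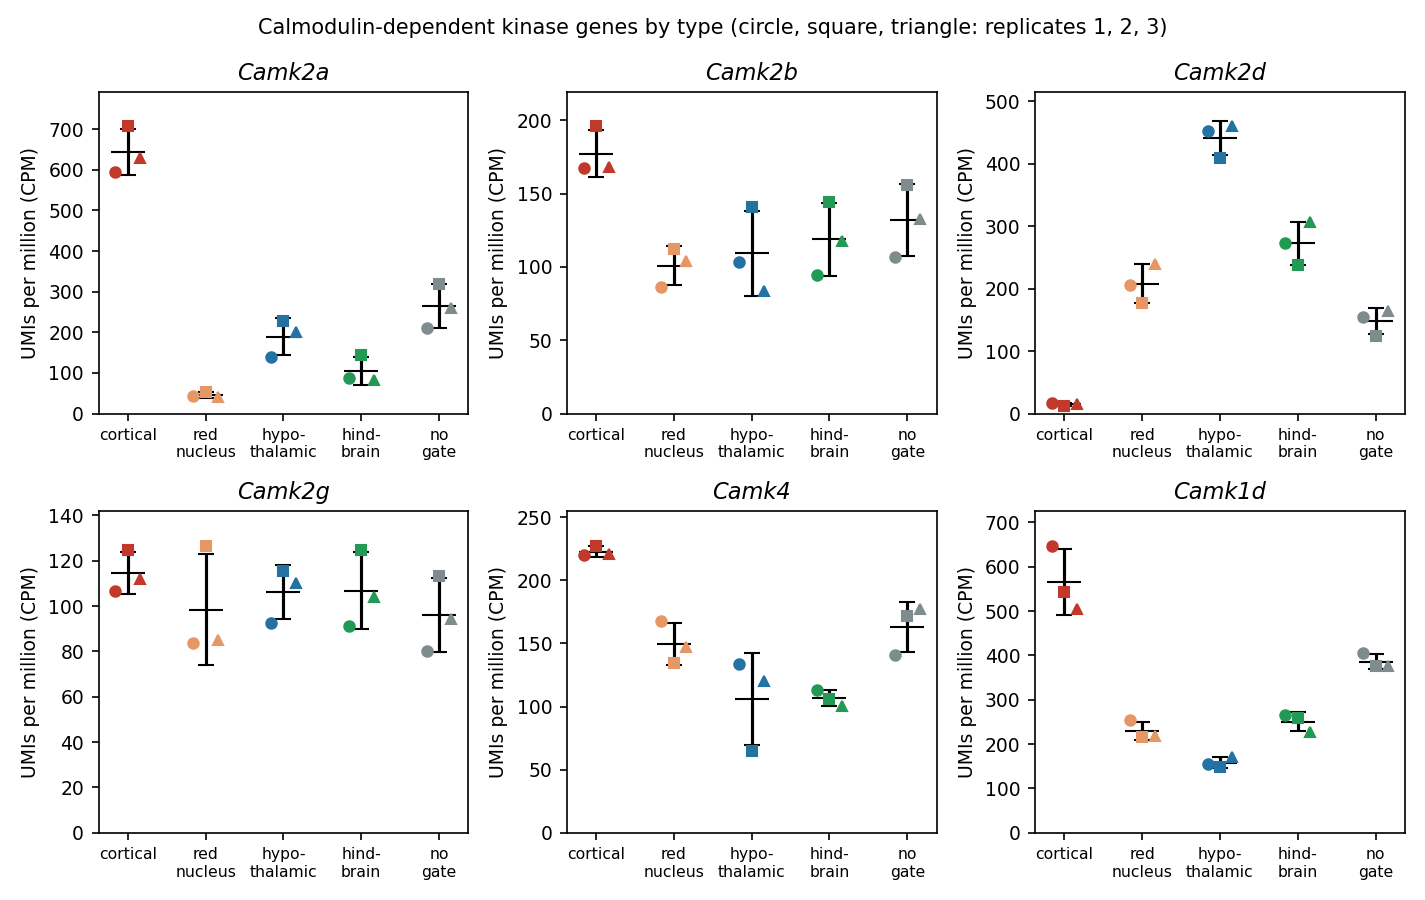
CPM of each of the 6 kinase genes (y axis, from 0) in each type (x axis), with 1 point per library and bars for the mean ± SD over the 3 libraries. Camk2a is highest in cortical nuclei (595 to 707 CPM) and Camk2d lowest there (12 to 17.2 CPM), while the Camk2g ranges overlap.

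The sum of the 4 CaMKII genes differed less between types than its makeup. It came to 951 ± 79.2 CPM in cortical, 845 ± 54.0 in hypothalamic, 602 ± 52.7 in hindbrain and 452 ± 29.6 CPM in red nucleus nuclei. As a share of the UMIs of these 4 genes, Camk2a made up 67.7% ± 0.53 (SD, n = 3) in cortical nuclei, 22.2% ± 4.12 in hypothalamic, 17.1% ± 4.46 in hindbrain and 10.1% ± 1.33 in red nucleus nuclei. Camk2d made up 1.58% ± 0.396 in cortical nuclei, 52.3% ± 5.98 in hypothalamic, 45.6% ± 7.83 in hindbrain and 46.0% ± 7.18 in red nucleus nuclei. In cortical nuclei there were 34.7, 58.8 and 41 Camk2a UMIs for each Camk2d UMI, and in hindbrain nuclei 0.321, 0.602 and 0.265.

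Camk2b held 18.6% in cortical, 19.6% in hindbrain, 22.3% in red nucleus and 12.9% in hypothalamic nuclei. Camk2g held 12%, 17.6%, 21.7% and 12.5% in the same order. The hypothalamic Camk2b shares (9.81 to 15.7%) lay below those of the other 3 types in every library. Nuclei that met no gate lay between, with 41% ± 3.42 Camk2a and 23.5% ± 5.43 Camk2d.

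Levels of different paralogs were also compared per length, since Camk2d spans 250 kb and Camk2g 59.2 kb. Whether UMIs rise with gene length in these libraries was not tested, so the order of paralogs within a type is given on both scales. Per kb of gene span, Camk2a made up 72.9% ± 0.336 in cortical nuclei and 38.9% ± 4.82 in hypothalamic nuclei, where it led. Camk2g led with 38.6% ± 4.82 in red nucleus nuclei and 31.2% ± 0.676 in hindbrain nuclei. In hindbrain replicate 2, Camk2a (33.5%) was above Camk2g (30.8%). Camk2d held 0.427% ± 0.108 in cortical, 23.2% ± 4.18 in hypothalamic, 19.8% ± 4.60 in red nucleus and 19.3% ± 4.71 in hindbrain nuclei. The leading paralog in the mean of each type was the same per kb of exon, with Camk2a at 34.2% in hypothalamic nuclei and Camk2g at 36.5% in red nucleus and 29.9% in hindbrain nuclei. The lead of Camk2d outside the cortical type therefore held for UMIs and not per length, while the gap in its share between cortical and other nuclei held on all of these scales. Whether introns were counted is not given in the sources used here.

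**Figure D2:**
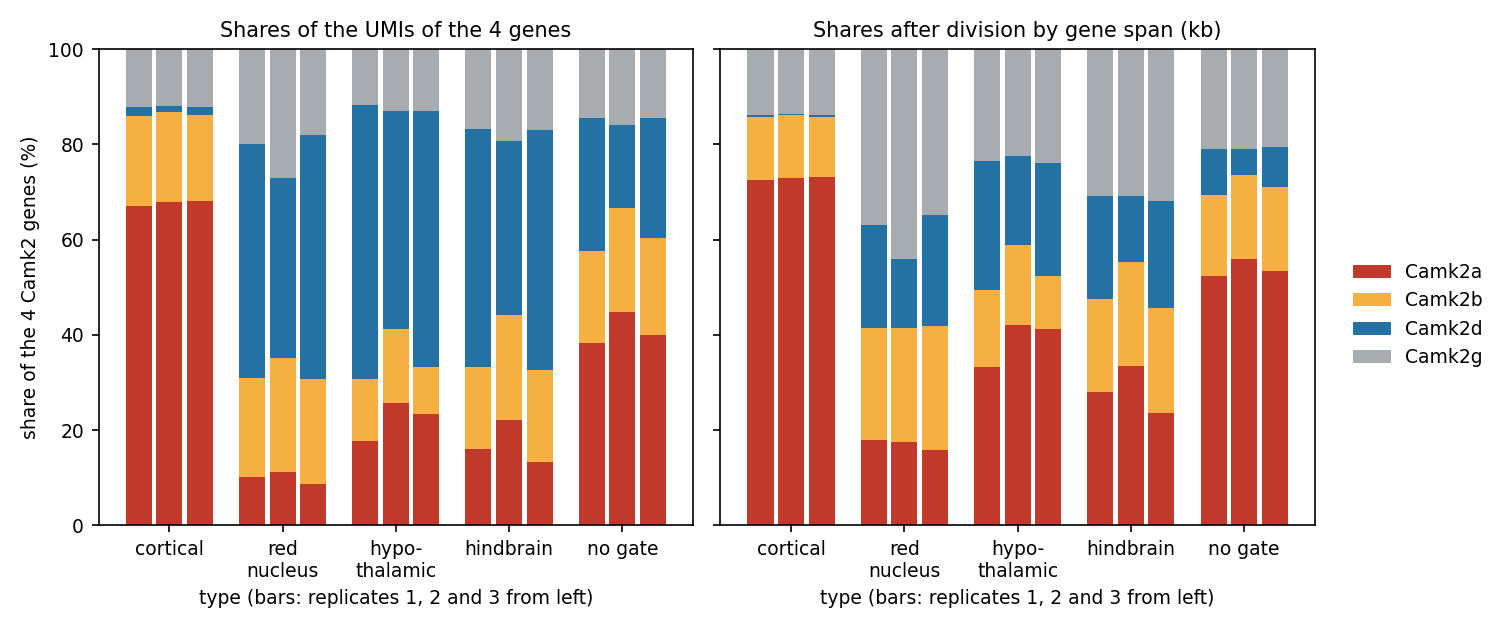
Share of each CaMKII paralog (y axis, percent of the 4 genes) in each type, with 1 bar per library, from UMIs (left) and from UMIs per kb of gene span (right). Camk2a holds 67.1 to 68.1% of UMIs in cortical nuclei, and Camk2d holds 1.16 to 1.94% there and 36.6 to 57.4% in the other 3 types, less when divided by length.

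The second library stood apart. It held 8325 barcodes outside the limits, against 31 and 134 in the others, and in each non-cortical type its Camk2a share was the highest and its Camk2d share the lowest of the 3. Without it, the Camk2d share was 50.2% in hindbrain, 50.1% in red nucleus, 55.6% in hypothalamic and 1.80% in cortical nuclei. The Camk2a share without it was 14.7%, 9.45%, 20.5% and 67.6% in the same order. The same library also had the most Slc17a7, the glutamate transporter of cortical neurons, in hindbrain nuclei, with 48.3 CPM against 18.5 and 23.2 CPM, and the most Hcrt in hindbrain nuclei, with 118 CPM against 61.9 and 34.5 CPM.

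Markers of cortical neurons were present in the other types and are given beside Camk2a. In hindbrain nuclei the 4 cortical markers stood at 14.4% (Bcl11b) to 28.3% (Slc17a7) of their cortical level, and Camk2a at 16% (12.9 to 20.3% across libraries). In red nucleus nuclei the 4 markers stood at 11.6 to 16.3% and Camk2a at 7.05%. In hypothalamic nuclei they stood at 6.92 to 22.7% and Camk2a at 29.2% (23.3 to 32.4%). In these means Camk2a was thus within the markers' range in hindbrain nuclei, below all 4 in red nucleus nuclei and above all 4 in hypothalamic nuclei, and none of the 4 was at 0 in any type. Across libraries, hypothalamic Slc17a7 (13.9 to 32.1%, on 36 UMIs) and Fezf2 (13.4 to 26.0%, on 8 UMIs) overlapped the Camk2a range. In replicate 2 Camk2a stood at 32.4% there and Slc17a7 at 32.1%. Summed, the 4 markers ran from 327 to 451 CPM in cortical nuclei, 56.6 to 114 CPM in hindbrain, 46.7 to 67.8 CPM in red nucleus and 32.7 to 81.1 CPM in hypothalamic nuclei. In the other direction, Camk2d in cortical nuclei stood at 5.45% of its hindbrain level, Slc17a6 at 7.46% of its hindbrain level and Hcrt at 6.1% of its hypothalamic level. Markers of microglia (Cx3cr1, P2ry12 and Csf1r) summed to 20.5 to 37.1 CPM in cortical nuclei and 51.8 to 93.8 CPM in the other 3 types. Those of oligodendrocytes summed to 55.3 to 68.6 CPM in cortical nuclei and 18.5 to 52.3 CPM in the other 3. The part of free RNA, of other cell types or of mixed nuclei in these levels was not tested.

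A further 148 hindbrain nuclei (5.32%), 13 red nucleus nuclei (3.92%) and 8 hypothalamic nuclei (5.37%) had Bcl11b with Fezf2 at 150 CPM or more. Without them, an alternative chosen after the values were seen, Camk2a had 73.5 CPM in hindbrain nuclei in place of 104 CPM, and a share of 12.5% in place of 17.1%. The Camk2d share there was 49.6%. Red nucleus nuclei then had 40.1 CPM of Camk2a, and hypothalamic nuclei 194 CPM.

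Single nuclei showed the same split. After each nucleus was thinned to 5000 UMIs, which left out 168 cortical, 25 red nucleus, 23 hypothalamic and 312 hindbrain nuclei, at least 1 Camk2a UMI was found in 3619 of 3958 cortical nuclei. That is 91.4% (exact 95% binomial interval 90.5 to 92.3%, which covers counting error only). The share was 51.6% (42.5 to 60.6%) of 126 hypothalamic nuclei, 27.7% (25.9 to 29.5%) of 2470 hindbrain nuclei and 18.9% (14.7 to 23.7%) of 307 red nucleus nuclei. Camk2d was found in 5.71% (5.01 to 6.48%) of cortical nuclei, 72.2% (63.5 to 79.8%) of hypothalamic, 65.7% (63.8 to 67.6%) of hindbrain and 62.2% (56.5 to 67.7%) of red nucleus nuclei. For comparison with free RNA, Hcrt was found in 23.0% of cortical nuclei and 27.3% of hindbrain nuclei at the same depth. The Camk2d share in cortical nuclei lay below the Hcrt share there. The genes differ in level at a source, with 899 CPM of Hcrt and 440 CPM of Camk2d in hypothalamic nuclei. Their shares in cortical nuclei are therefore not on 1 scale, and the origin of Camk2d UMIs there was not tested. Slc17a7 was found in 11.5% of hindbrain and 41.8% of cortical nuclei, and Slc17a6 in 3.64% of cortical and 36.6% of hindbrain nuclei. The nuclei that could be thinned had median depths of 20122 UMIs in cortical, 12773 in red nucleus, 11476 in hindbrain and 9248 in hypothalamic nuclei before thinning.

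Taking both genes in the same nucleus, 87.9% of cortical nuclei had Camk2a without Camk2d and 3.54% had both. Among hindbrain nuclei 50.1% had Camk2d without Camk2a, 12.02% had Camk2a without Camk2d and 15.6% had both. In red nucleus nuclei these shares were 50.8%, 7.49% and 11.4%. Both genes were found in 37.3% of hypothalamic nuclei, with 35.7%, 36.6% and 39.5% in replicates 1, 2 and 3. The values by library were 11.3%, 20.1% and 15.4% in hindbrain nuclei, 9.91%, 16.5% and 9.01% in red nucleus nuclei and 4.26%, 3.94% and 2.88% in cortical nuclei, so the hypothalamic libraries lay above all the others. Camk4 and Camk1d were found together in 54.3% of cortical nuclei, 36.2% of red nucleus, 22.8% of hindbrain and 14.3% of hypothalamic nuclei. Shares with both genes depend on how often each gene was found by itself. In hypothalamic nuclei these were 51.6% for Camk2a and 72.2% for Camk2d. Whether any pair met more often than its separate shares give was not tested.

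**Figure D3:**
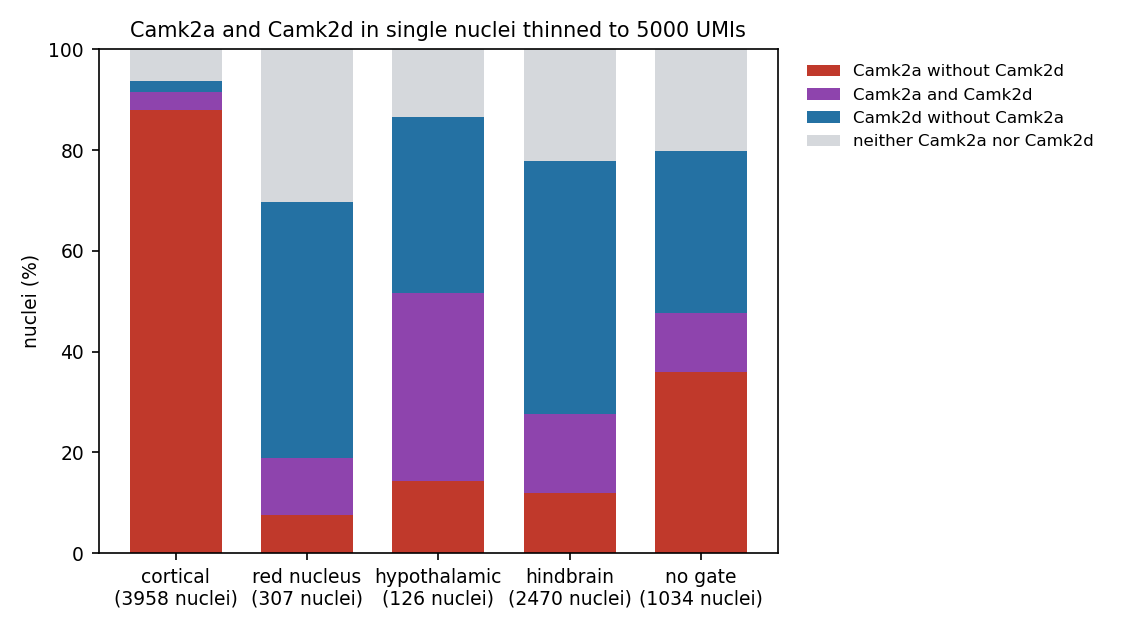
Percent of nuclei (y axis, from 0) with UMIs of Camk2a, Camk2d, both or neither after thinning to 5000 UMIs, by type (x axis, number of nuclei below each bar). Cortical nuclei are 87.9% Camk2a without Camk2d, hindbrain nuclei 50.1% Camk2d without Camk2a, and both genes are most often together in hypothalamic nuclei (37.3%). The share with both depends on how often each gene was found by itself.

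The types were not uniform. The subgroups that follow were cut by marker levels with earlier results of these data known, and are a description. Of the hypothalamic nuclei, 56 entered by Ros1 with Rfx2, and these had 2153 ± 358 CPM of Hcrt. Another 92 entered by Sim1, with 73.8 ± 40.0 CPM of Hcrt and 51.7 ± 2.42 CPM of Otp, and 1 nucleus met both gates. Camk2d had 723, 620 and 907 CPM in the Ros1 and Rfx2 nuclei and 249, 210 and 270 CPM in the Sim1 nuclei, with no overlap. The high hypothalamic mean of Camk2d thus came with the orexin-rich nuclei, and the range of the Sim1 nuclei overlapped that of the hindbrain type. Camk2a did not separate them in the same way, with 181, 230 and 295 CPM in the first set and 112, 228 and 160 CPM in the second. Camk2d made up 61.5% ± 5.29 of CaMKII UMIs in the Ros1 and Rfx2 nuclei and 40.1% ± 8.06 in the Sim1 nuclei.

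Within the hindbrain type, 152 nuclei with Pard3b at 500 CPM or more had 603, 460 and 580 CPM of Camk2d, a share of 68.0% ± 8.48. That was above the 200 nuclei with Angpt1 and Col25a1 at 500 CPM or more, which had 243, 255 and 260 CPM and a share of 49.1% ± 5.58. The 1414 nuclei with Zfhx3, Htr2c and Glra1 at 1000 CPM or more lay between them with 338, 303 and 350 CPM. A nucleus could belong to more than 1 of these sets. In all 3 of them the mean Camk2a level was 43.2 to 59.9 CPM, lower than the 104 CPM of the whole hindbrain type. This was not particular to them. Mean Camk2a was 55.2 CPM in 362 hindbrain nuclei with Chrm2 at 500 CPM or more. It was 49.3 CPM in 1296 with Reln and Nxph1 at 500 CPM or more, and 51.9 CPM in 631 with Slc17a6 at 150 CPM or more. Red nucleus nuclei had 40.6 to 53.0 CPM of Camk2a, and the range of each of these hindbrain sets overlapped that.

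Nuclei outside the cortical type with the inhibitory markers Gad1, Gad2, Slc32a1 and Slc6a5 together at 150 CPM or more (98) had 42.2% ± 12.2 Camk2d and 13.8% ± 4.97 Camk2a. Those with the monoaminergic markers Dbh, Tph2, Slc6a2 and Slc6a4 together at 150 CPM or more (72) had 41% ± 6.95 Camk2d and 24.0% ± 4.76 Camk2a. Both lay near the makeup of the non-cortical types.

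Within the cortical type, the 1124 nuclei with Slc17a7 at 150 CPM or more had 675, 736 and 689 CPM of Camk2a and only 5.71, 5.29 and 5.48 CPM of Camk2d. The Camk2d share of 0.541% ± 0.031 there was lower than the 1.58% of the whole type. A set of 40 cortical nuclei with the p53 targets Cdkn1a and Mdm2 at 500 CPM or more had 177, 195 and 162 CPM of Camk2a and 68.8, 90.9 and 93.6 CPM of Camk2d. It held 12, 5 and 23 nuclei in replicates 1, 2 and 3, with 92 UMIs of Camk2a, 48 of Camk2d and 23 of Camk4. The cortical marker Bcl11b had 61.6 ± 18.9 CPM in this set, against 209 ± 19.4 CPM in the whole type. The part of mixed nuclei in it was not tested. Camk4 was also low in that set, at 44.2 ± 6.80 CPM against 223 ± 4.02 CPM in the whole type, while Camk1d was not, at 613 ± 100.3 CPM.

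Nuclei that met no gate split by glutamate transporter. The 177 with Slc17a7 at 150 CPM or more had 409, 584 and 569 CPM of Camk2a and 19.5, 30.9 and 42.6 CPM of Camk2d. The 178 with Slc17a6 at 150 CPM or more had 37.5, 81.5 and 38.0 CPM of Camk2a and 244, 248 and 234 CPM of Camk2d. The first set had the cortical makeup (65.1% Camk2a), in nuclei that the gates had left untyped. The Camk2d share of the second set (48.7%) lay within the means of the non-cortical types (45.6 to 52.3%), which it does not tell apart. Its Camk2a share was 10.3% ± 4.09, against 10.1% in red nucleus and 17.1% in hindbrain nuclei. Hindbrain nuclei with Slc17a6 at 150 CPM or more had 8.72% ± 2.53, so this share does not tell red nucleus and hindbrain apart either.

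**Figure D4:**
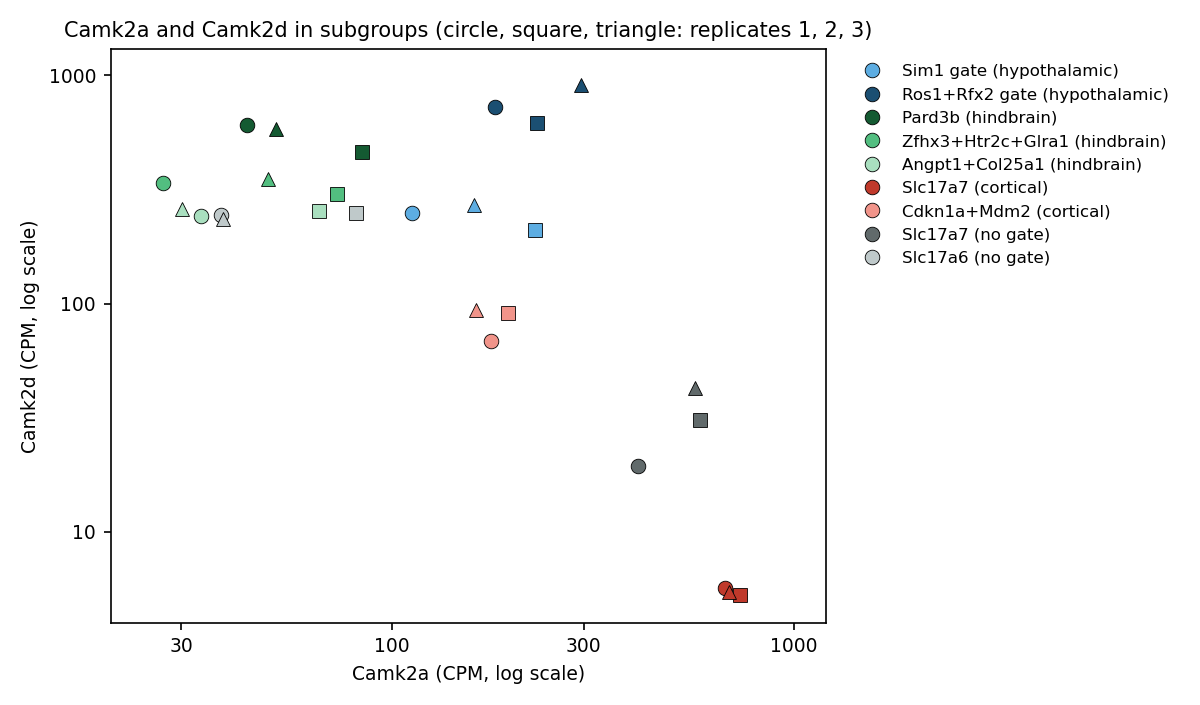
Camk2d against Camk2a (both CPM, log axes) in 9 subgroups, with 1 point per library. Slc17a7 nuclei lie at the lower right, with Camk2d at 5.29 to 42.6 CPM, and the Ros1 and Rfx2 nuclei of the hypothalamic type lie highest, at 620 to 907 CPM of Camk2d.

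Genes with a pattern like each member's were ranked by Pearson correlation of log2(CPM + 1) over the 12 sums of type and library, among 7041 genes with a mean of at least 20 CPM. The sums share libraries and depth, so these are descriptions. Closest to Camk2a were Cacna1h, a T-type calcium channel (r = 0.983), Rbm24 (0.980) and Kcnmb4, a subunit of a calcium-activated potassium channel (0.979). Closest to Camk2d were Vwc2l (r = 0.997), Grb10, an adaptor of insulin receptors (0.994), and Nalcn, the sodium leak channel (0.994). Vwc2l had 8.35 CPM in cortical nuclei, 157 in red nucleus, 240 in hindbrain and 433 in hypothalamic nuclei, the same order as Camk2d. Camk2b was closest to Creg2 (0.976), the cortical marker Slc17a7 (0.953) and Gm17167 (0.950), and Camk2g to Edrf1 (0.924), Ap2a1 (0.910) and Mapk9 (0.9). Camk4 was closest to Lmo7 (0.963), Arhgap10 (0.950) and Pdzrn3 (0.939). Camk1d was closest to Sorl1 (0.989), Ppm1e (0.989), which encodes a phosphatase that acts on CaMKII and CaMKIV, and Ntrk3 (0.987), the receptor of neurotrophin 3.

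The genes around the kinases were taken from a list of 46, grouped by role: calmodulin, calmodulin-binding buffers, other kinases, CaMKII inhibitors, synaptic anchors and substrates, phosphatases, nuclear targets, other calmodulin-dependent enzymes and intracellular calcium channels. Each type was compared with the mean of the other 3 in 1 edgeR quasi-likelihood fit, so the 4 comparisons share their sums. Calls needed a log2 fold change of 1 or more in size together with an adjusted p under 0.05 (Benjamini-Hochberg, over all genes). In cortical nuclei 15 of the 46 were higher, against 9.21% of all genes, and 6 were lower, against 13.3%. The list's median log2 fold change was 0.64, and that of all genes -0.03. With total UMIs as the scale, which moves the median of all genes by 0.43 in this comparison, the list had 12 higher and 8 lower and all genes 866 higher and 3848 lower, against 1490 and 2156 with TMM.

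In cortical nuclei the intracellular calcium channels rose together (3 of 3 called). Itpr1, the IP3 receptor, had 514, 454 and 477 CPM in cortical nuclei and a mean of 83.5 ± 10.5 CPM over the other types, a log2 fold change of 2.98 ± 0.09 (SE, edgeR adjusted p = 3.0e-14). The ryanodine receptors Ryr2 (1.54 ± 0.06) and Ryr3 (2.08 ± 0.07) rose too. Of 4 synaptic anchors and substrates, 2 rose: Lrrc7, which encodes densin, a scaffold that binds CaMKII (1.79 ± 0.06), and Grin2b, the NMDA receptor subunit that anchors CaMKII (1.55 ± 0.06). None of the 3 calmodulin genes was called, with log2 fold changes of 0.25 to 0.71.

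Of 6 other calmodulin-dependent enzymes, 2 rose and 1 fell in cortical nuclei. Pde1a, a calmodulin-activated phosphodiesterase, had 1809, 1779 and 2023 CPM there against 241 ± 25.1 CPM (log2 fold change 3.61 ± 0.10, edgeR adjusted p = 5.0e-15). Adcy1, the calmodulin-activated adenylyl cyclase, rose by 2.05 ± 0.07, and Nos1, the neuronal nitric oxide synthase, had a log2 fold change of -1.58 ± 0.33. Among 8 nuclear targets, Mef2c, a transcription factor under CaMK control through class II histone deacetylases, had 806, 789 and 890 CPM against 119 ± 21.5 CPM (3.32 ± 0.09, edgeR adjusted p = 5.0e-15), and Hdac4 rose by 1.29 ± 0.06 (0.86 and not called with total UMIs as the scale).

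The other kinases of the list moved in both directions in cortical nuclei, 3 higher and 2 lower of 9. Camk1, a paralog of Camk1d, had 4.02, 7.54 and 4.76 CPM in cortical nuclei against 48.7 ± 15.5 CPM over the other types (-2.72 ± 0.11, edgeR adjusted p = 3.8e-13), and Pnck, another CaMKI family member, had -2.07 ± 0.16. The CaMKI family thus held members on both sides, Camk1d with its highest level in cortical nuclei and Camk1 and Pnck with their lowest. Camkk2, the kinase that activates CaMKI and CaMKIV, rose by 1.49 ± 0.07, the kinase-dead Camkv by 2.01 ± 0.17, and Dapk1 by 1.11 ± 0.06 (0.68 and not called with total UMIs as the scale).

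Of the CaMKII inhibitors, Camk2n2 was lower in cortical nuclei, with 5.52 ± 1.22 CPM against 27.8 ± 3.89 CPM (-1.90 ± 0.15), and Camk2n1 was not called (0.65 ± 0.11). Among 7 phosphatase genes, Ppm1e rose by 2.26 ± 0.06 and Ppp3ca, the calcineurin catalytic subunit, by 1.19 ± 0.06 (0.76 and not called with total UMIs as the scale). Rcan2, a regulator of calcineurin, was lower (-2.06 ± 0.16). Of the 4 calmodulin-binding buffers, Nrgn (neurogranin) was higher (2.06 ± 0.14) and Pcp4l1 lower (-2.17 ± 0.38). The higher and lower genes each moved in the same direction in 3 of 3 libraries.

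In red nucleus nuclei 2 of the 46 were higher, against 4.84% of all genes, and 5 were lower, against 2.32%. Pcp4l1 had 9.19, 8.48 and 12.5 CPM against 2.86 ± 1.33 CPM (log2 fold change 2.00 ± 0.34, edgeR adjusted p = 3.8e-04), and Rcan2 was the other higher gene (1.22 ± 0.15). Pde1a had 109, 64.6 and 105 CPM against 834 ± 17.5 CPM (-2.66 ± 0.14, edgeR adjusted p = 2.8e-10). Camkv had 5.36, 10.1 and 2.39 CPM against 27.5 ± 10.7 CPM (-2.09 ± 0.33), and Mef2c had 50.6, 57.8 and 89.6 CPM against 373 ± 29.9 CPM (-2.01 ± 0.13). The lower genes were thus ones that were highest in cortical nuclei, which are part of the mean they were compared with. The 2 higher genes were both called lower in cortical nuclei. Dapk1 (-1.01 ± 0.08) and Itpr1 (-1.13 ± 0.14) were the other 2 lower genes, and neither was called without replicate 2 (-0.97 and -0.88) or with the gate thresholds doubled (-0.96 and -0.98). Dapk1 was also not called with total UMIs as the scale (-0.98).

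In hypothalamic nuclei 2 of the 46 were higher, against 4.55% of all genes, and 6 were lower, against 3.33%. With total UMIs as the scale the list had 5 higher and 3 lower. Ppm1e, the CaMK phosphatase, had 191, 191 and 176 CPM against 523 ± 26.3 CPM (log2 fold change -1.56 ± 0.09, edgeR adjusted p = 6.1e-10). Ryr2 had 300, 296 and 337 CPM against 739 ± 49.5 CPM (-1.47 ± 0.08), and Itpr1 had 79.0, 84.7 and 59.2 CPM against 219 ± 17.8 CPM (-1.31 ± 0.18). Both CaMK kinases were lower, Camkk1 with -1.19 ± 0.28 and Camkk2 with -1.03 ± 0.14, and neither was called with total UMIs as the scale (-0.91 and -0.75). Camkk2 also fell short of the fold threshold with DESeq2 (-0.99), without replicate 3 (-0.92) and without nuclei that met 2 or more gates (-0.996), with adjusted p from 3.9e-06 to 0.0022 in these fits. Adcy1 was the sixth lower gene (-1.10 ± 0.13, and -0.82 and not called with total UMIs as the scale). Pnck had 21.8, 28.8 and 22.5 CPM against 11 ± 1.74 CPM (1.29 ± 0.25, edgeR adjusted p = 0.0011), and Camk1 was the other higher gene (1.15 ± 0.16). Cortical nuclei are part of the mean in all of these comparisons. Ppm1e, Ryr2, Itpr1, Camkk2 and Adcy1 were called higher in cortical nuclei, and Pnck and Camk1 lower. The Itpr1 mean over the non-cortical types, given above, was far below 219 CPM. Mean Ppm1e was lower in hypothalamic nuclei (186 CPM) than in red nucleus (306 CPM) and hindbrain nuclei (323 CPM) too.

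In hindbrain nuclei 2 of the 46 were higher, against 3.5% of all genes, and 1 was lower, against 1.25%. The 202 genes behind the latter share became 86 without replicate 3 and 120 with no replicate block. Pde1c, a second calmodulin-activated phosphodiesterase, had 56.3, 62.8 and 57.2 CPM against 21.8 ± 2.38 CPM (log2 fold change 1.39 ± 0.12, edgeR adjusted p = 3.0e-07). Pnck had 19.2, 24.4 and 20.1 CPM against 12.1 ± 2.12 CPM (1.18 ± 0.13), and Ryr3 had 183, 161 and 148 CPM against 403 ± 39.1 CPM (-1.25 ± 0.08). Cortical nuclei, where Ryr3 was called higher and Pnck lower, are part of these means. Without the nuclei of all non-cortical types that carried cortical markers, 4 of the 46 were lower instead of 1. Pde1 genes thus differed in where they were highest, Pde1a in cortical nuclei with 1870 CPM and Pde1c in hindbrain nuclei with 58.7 CPM.

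**Figure D5:**
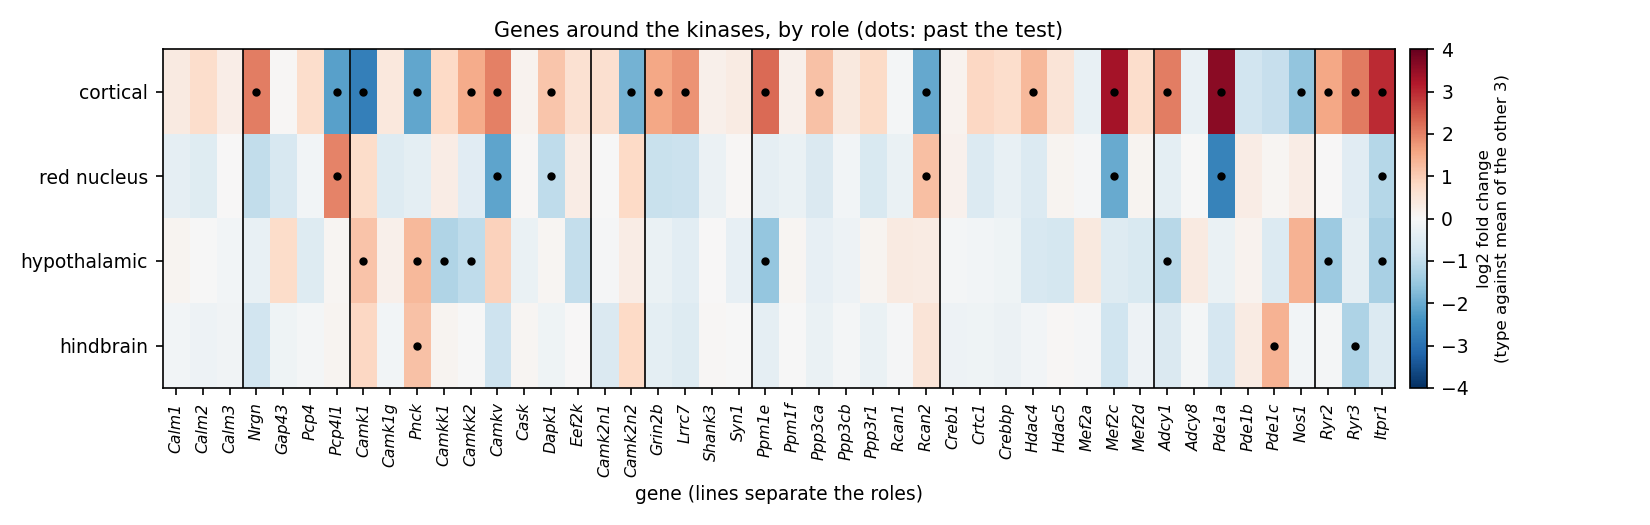
Log2 fold change of the genes of the list (colour, type against the mean of the other 3 types) by gene (x axis, ordered by role) and type (y axis), with a dot where the gene was called. The cortical row holds the most dots, 15 higher and 6 lower, and the hindbrain row the fewest, 2 higher and 1 lower.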

How the data were processed

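Nuclear RNA of sorted brain nuclei was measured in 3 libraries, as UMI counts of each gene in each barcode. The authors deposited raw counts made with Cell Ranger, version 6.1.1 per the file headers and 7.0.1 per the submitters' processing notes, which also name build mm10. Counting of introns, use of strand and selection of barcodes are not recorded in either, so levels of long genes may depend on them. The members, gates, gene lists and subgroups were chosen with earlier results of these data known. A few genes of the lists are not reported here and were left out of their counts and sums.

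UMIs were summed per library and type, at 367083 to 45768766 UMIs a sum, and scaled to CPM. Doublets were not removed. Scrublet (Scanpy 1.11.5) marked 0.560%, 2.13% and 1.45% of kept barcodes, and leaving them out was an alternative. The 12 sums were fitted with edgeR 4.0.16 (R 4.3.3) by the quasi-likelihood test with TMM, filterByExpr and the library as a block, since the types of 1 library share a suspension. It covered 16185 genes and left 6 residual degrees of freedom. Members and gate genes were left out of the counts of called genes, which left 16170. The script was tested on simulated data. Of the called genes of the list, the 4 with the largest absolute log2 fold change per type are described with all values, and the 3 genes most correlated with each member are named. DESeq2 1.42.0 was an alternative. P-values measure only the spread between these libraries.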

Additional observations from a re-analysis of the deposited data

How the results depend on the processing

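Each of 39 calls of list genes kept its sign under every alternative run for it, where 454 values still passed both thresholds and 14 did not. Over all alternatives, 12 values of the 16 counts of called genes moved by more than 1.5 times, and 19 values of the 24 member levels and 29 of the 16 shares moved by more than 1 SD over libraries. The Camk2a share of cortical nuclei (67.7%) was 68.6% without nuclei that met 2 or more gates, 68.3% with gate thresholds doubled and 65.5% with each nucleus weighted equally. The cortical Camk2d share (1.58%) was 1.06%, 0.853% and 3.49% under these, and 2.25% thinned to 5000 UMIs. The hypothalamic Camk2d share (52.3%) was 44.7% with each nucleus weighted equally.

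Alternatives chosen after the data were seen moved more. Per kb of gene span, the Camk2a share was 72.9% in cortical, 17.1% in red nucleus, 38.9% in hypothalamic and 28.4% in hindbrain nuclei, and the Camk2d share 0.427%, 19.8%, 23.2% and 19.3%. Without non-cortical nuclei that carried cortical markers, the Camk2a share was 12.5% in hindbrain nuclei, and 4 list genes instead of 1 were lower in hindbrain nuclei. With total UMIs as the scale, all genes gave 866 higher and 3848 lower in cortical and 1204 higher and 281 lower in hypothalamic nuclei (735 and 538 with TMM), and the list gave 5 higher and 3 lower in hypothalamic nuclei. The cause of these changes was not tested.

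Gate thresholds doubled left 3 list genes lower in red nucleus nuclei, not 5. Leaving out each library in turn gave 3 to 6 there, 2 to 4 list genes higher in hypothalamic nuclei (4 without replicate 1) and 86 to 193 of all genes lower in hindbrain nuclei (86 without replicate 3, 202 with all). Leaving out libraries gave Camk2a shares of 67.6 to 68.0% in cortical, 9.45 to 10.8% in red nucleus, 20.5 to 24.5% in hypothalamic and 14.7 to 19.0% in hindbrain nuclei. The fit with no replicate block called 120 of all genes lower in hindbrain nuclei, against 202 with the block, and changed none of the 39 calls of list genes. The pairing comes from the types sharing a library. Low UMI numbers limit the hypothalamic values most, where Camk4 rests on 144 UMIs.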

Other observations

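Barcodes outside the limits, which enter no comparison, held the CaMKII genes as well. In replicate 2, 8325 such barcodes with a median of 679 UMIs gave 2292 Camk2a UMIs, or 49.7% of the UMIs of the 4 CaMKII genes (exact 95% binomial interval 48.2 to 51.1%). Camk2b held 26.9%, Camk2g 18.3% and Camk2d 5.16% (4.54 to 5.83%) in these barcodes. Camk1d stood at 774 CPM in them and Camk4 at 122 CPM. Replicate 3 had 134 such barcodes, with 41.5% Camk2a (29.4 to 54.4%) and 6.15% Camk2d (1.70 to 15.0%) on few UMIs, and replicate 1 had 31, with 34.8% Camk2a (16.4 to 57.3%) and 17.4% Camk2d (4.95 to 38.8%).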
